A study of Rattus norvegicus with 4 samples.

Results

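The genes described here encode the translation initiation factors (symbols starting with Eif) and elongation factors (symbols starting with Eef), together with the kinases, binding proteins and methyltransferases that carry those prefixes. They were taken by symbol from the platform annotation, which gave 66 probe sets for 56 genes, out of 10411 genes with a single symbol on the array. Each gene was represented by its probe set with the highest mean signal over the 4 arrays. The choice used the name and the mean signal and not the difference between groups. A further 4 probe sets, annotated to Eif3e or Eif5 together with a related sequence, had several symbols and were not used, so Eif3e and Eif5 were not analysed here.

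The samples were neonatal rat ventricular myocytes, heart muscle cells of newborn rats kept in primary culture, and they were plated on dishes coated with fibronectin (2 arrays) or on uncoated dishes (2 control arrays). Fibronectin is a matrix glycoprotein that binds integrin receptors, and the title of the study concerns hypertrophy, the growth of the myocytes. Both groups were kept with 10% serum for 24 h, followed by 48 h without serum, and total RNA of each sample was hybridised to 1 array. Whether the arrays of 1 group stem from different cultures is not stated in the labels. The p-values therefore reflect the spread among these samples alone, and that spread may be technical.

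Protein synthesis starts when the initiation factor eIF2 brings the initiator tRNA to the small ribosomal subunit, eIF3 holds the preinitiation complex together, and eIF4F joins it to the capped end of the mRNA. eIF2B recharges eIF2 with GTP, and kinases that phosphorylate the alpha subunit of eIF2 slow that exchange under stress. The elongation factor eEF1A then delivers aminoacyl-tRNA and eEF2 moves the ribosome along the message. In heart muscle the supply and phosphorylation of these factors are known to set the rate of protein synthesis during growth.

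Many mRNAs of the translation machinery are known to begin with an unbroken run of pyrimidines, the 5′ terminal oligopyrimidine tract, through which mTOR signalling controls their translation. The sequences below show pyrimidine runs close to the annotated starts of members whose values are given later. Counted from the annotated start, the run began at 5 in Eif3f, 14 in Eif3i, -17 in Eif3k, -3 in Eef1a1, 3 in Eef1b2 and -20 in Eef1g. The runs of Eif3k (14 bases) and Eef1g (12 bases) thus ended before the annotated start. Whether a run lies at the true first base of the mRNA was not determined. They are from RefSeq on the GRCr8 build, 30 bases each, 5′ to 3′ on the gene's strand, with the run in capitals.
Eif3f, chr1:172369058-172369087, plus strand: cgttctagCCTCTCTCTTTCTCggcaagat
Eif3i, chr5:147226877-147226906, minus strand: ctcacattgCCTCTCTCCTCgcgtcaccgc
Eif3k, chr1:93397483-93397512, minus strand: ccaccacgTTTCTTTTTCTTCCggtccttg
Eef1a1, chr8:88225053-88225082, minus strand: gccttggacgTTCTTTTTCgcaacgggttt
Eef1b2, chr9:72074086-72074115, plus strand: gtcccggCCCTTTTTCTCCCTCagcgctgg
Eef1g, chr1:215289786-215289815, plus strand: acagccccaCCCCCTTTCTCTgcggaatca

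A promoter sequence was found for 51 of the 56 genes. A run of at least 8 unbroken C or T, sought on the gene's strand within 30 bases either side of the annotated start, was present in 19 of the 51 (37.3%). It was present in 25.2% of all 27457 genes with a promoter sequence and in 21.8% of the 5965 genes tested on the array that had one. The E-box CACGTG, which reads the same on both strands and is the site bound by Myc, a known activator of genes for protein synthesis, was sought in the 300 bases from 250 before to 50 after the start. It was present in 11 of the 51 members (21.6%), in 7.08% of all genes and in 10.1% of tested array genes. These matches describe letters in a window and not sites in use. The E-boxes of 4 members that recur in the results are shown in capitals.
Eif4e, chr2:229740661-229740690, plus strand: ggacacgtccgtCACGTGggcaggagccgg
Eif4g1, chr11:93746335-93746364, minus strand: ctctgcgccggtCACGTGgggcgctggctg
Eif5a, chr10:55143410-55143439, minus strand: aaggggcggggtCACGTGtgtgcgtcattg
Eif3b, chr12:19334808-19334837, minus strand: actcgctgcacgCACGTGgctccgcgctag

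The members with either feature lay on both sides of the controls. Of the 19 tested members with a pyrimidine run, 5 lay above both controls on both fibronectin arrays and 3 lay below both. Of the 30 tested members without one, 7 lay above and 6 below. Over all tested genes 20.6% lay above and 17.2% below, and the members' counts with a run are near those shares. Of the 10 tested members with CACGTG, 2 lay above and 4 below, against 10 above and 5 below among the 39 without.

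Across the 9519 probe sets tested, fibronectin replicate 1 correlated with fibronectin replicate 2 at r = 0.792 and with control replicate 1 at 0.904. The controls correlated with each other at 0.910. Probe sets are not independent of each other. Over the 54 tested members fibronectin replicate 1 correlated with fibronectin replicate 2 at 0.899 and with control replicate 1 at 0.959. The controls correlated with each other at 0.978 over these members. Transcripts for the Gapdh control had 3′ to 5′ signal ratios of 6.02 and 3.52 on fibronectin replicates 1 and 2, against 1.64 and 1.15 on control replicates 1 and 2. For beta-actin the ratios were 13.0 and 6.29 on the fibronectin arrays, against 1.46 and 1.40 on the controls. For hexokinase they were 3.11 and 7 on the fibronectin arrays, against 3.77 and 4.12 on the controls. The deposited 5′ signals of hexokinase were only 8.27 and 7.79 on the fibronectin arrays, against 37.9 and 28.9 on the controls. Its ratios on fibronectin therefore rest on very low signals. The part that RNA quality plays in the differences below was not tested. All 10 measured myocyte markers, among them Tnnt2, Myl2 and Tnnc1, were bright enough to be tested. Their means were higher on fibronectin for 6 and lower for 4, with a median log2 difference of 0.11. Myl3 and Tnnc1 lay above both controls on both fibronectin arrays, and Atp2a2, at -0.94 (SE 0.32), lay below both. Over all tested genes 20.6% lay above and 17.2% below. All 8 fibroblast markers had lower means on fibronectin, with a median log2 difference of -0.80 and log2 summed signals of 14.14 and 14.88 on the fibronectin arrays, against 14.94 and 15.53 on the controls. Of 5 tested leukocyte markers 4 had lower means, with log2 summed signals of 9.77 and 10.10 on the fibronectin arrays, against 10.36 and 10.68 on the controls. Of the endothelial markers Pecam1 and Vwf were left out as dim. Kdr measured 6.80 and 6.72 on fibronectin, against 7.20 and 5.80 on the controls. Of 4 tested smooth muscle markers 2 had higher means on fibronectin and 2 lower, with a median log2 difference of 0.01. Of 2 tested Schwann and neural cell markers Prph differed by 1.65 (SE 0.80) and Ncam1 by 0.03 (SE 0.59), a median of 0.84. The fibronectin arrays overlapped the controls for Ncam1. S100b was left out as dim, with a log2 difference of -0.38. Fewer cells of a type and less RNA per cell cannot be told apart in such samples, and the part of these other cells in the results was not tested.

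Signals are quantile-normalized intensities on the log2 scale. Values under the 20th percentile of all values, 4.55 on the log2 scale, were raised to that floor and have no order. Of the 56 genes, 54 were bright enough to be tested, and Eif2ak4 and Eef1akmt4 were left out as dim. No member reached a Benjamini-Hochberg adjusted p under 0.05 in limma, the adjusted p-values of the 54 running from 0.718 to 0.993. Over the whole array 0% of the 9519 probe sets passed, and 5.68% of 7101 tested genes had an unadjusted p under 0.05. Among the 54 members 8 had such a p, 6 with higher and 2 with lower values on fibronectin, beside 3.03% and 2.65% of all tested genes in those directions. The 8 were Eif2ak2, Eif3b, Eif3d, Eif3f, Eif3h and Eef1d on the higher side, and Eif4a2 and Eif5a on the lower side.

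The 2 fibronectin arrays were above both controls for 14 of the 54 members (background 20.6% of tested genes) and below both for 9 (background 17.2%). The median log2 difference was 0.07 over the tested members and 0.06 with the 2 dim genes included, beside 0.02 for all tested genes. Among members whose groups did not overlap, 1 was higher by 1 log2 unit or more, Eif2ak2 (background 3.55%), and 1 was lower by that much, Eif4a2 (background 4.03%). The counts depended on the scaling: on the deposited scale 19 lay above and 2 below, beside 22.0% and 10.5% of all tested genes, and with each array shifted to the same median 19 lay above and 4 below, beside 22.2% and 14.04%. Comparing fewer arrays leaves fewer chances to overlap, so the counts grow for all genes together. Without fibronectin replicate 1, 25 members lay above and 20 below, beside 40.8% and 39.3% of all tested genes. Without fibronectin replicate 2 it was 21 and 17, beside 38.7% and 32.5%. Without control replicate 1 it was 18 and 17, beside 33.5% and 27.5%, and without control replicate 2 it was 22 and 14, beside 32.5% and 30.8%. The sign of the difference was the same with any 1 array left out for 30 of the 54 members and for 3664 of the 7101 tested genes.

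**Figure D1:**
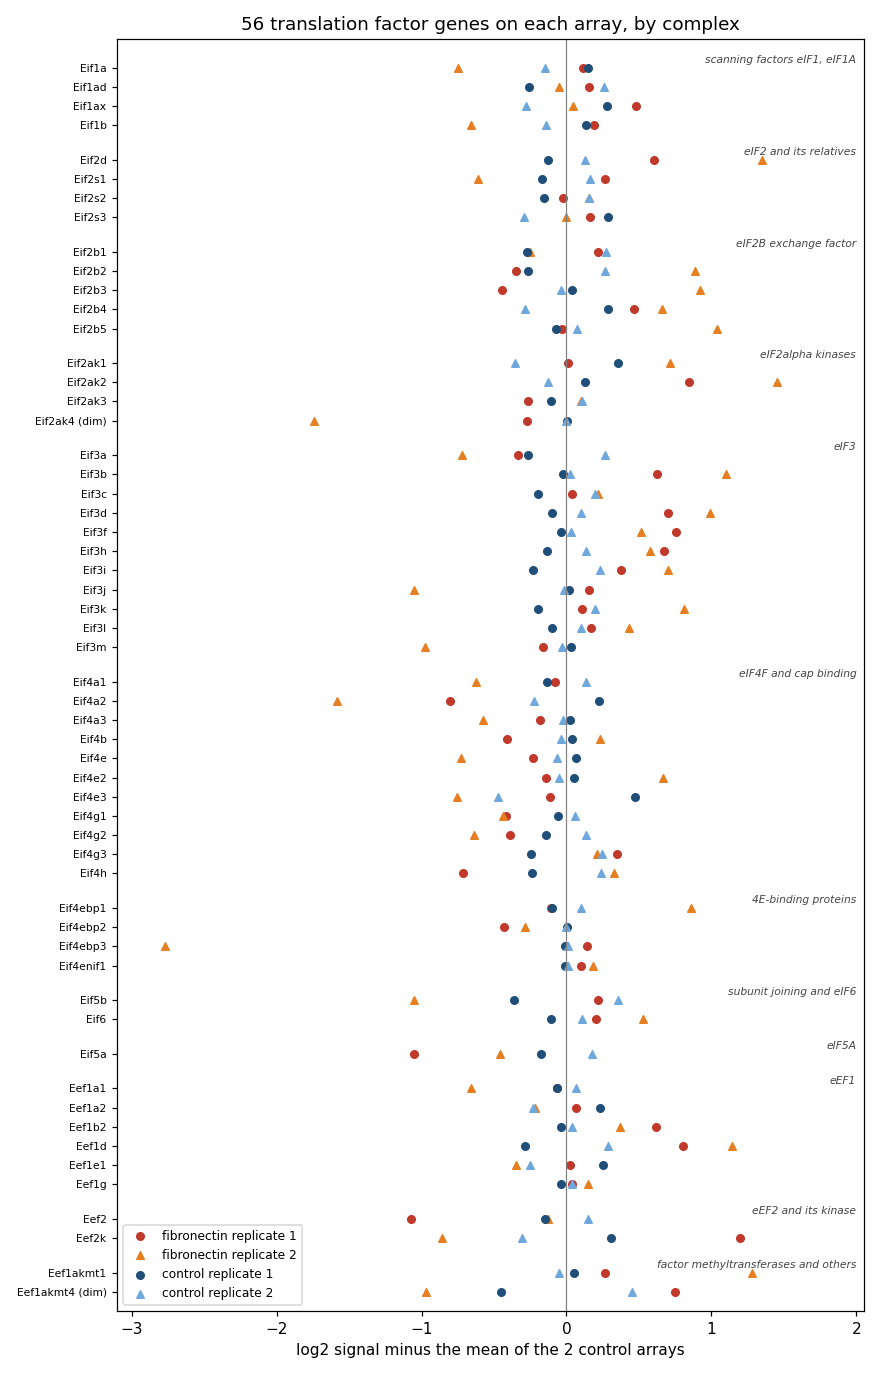
Each row is a gene, grouped by complex from initiation (top) to elongation (bottom), and each point is 1 array, placed by its log2 signal minus the mean of the 2 control arrays. Both fibronectin arrays stand to the right of both controls for 6 of the 11 eIF3 subunits and to the left for 5 of the 11 eIF4 factors. Over all tested genes the shares are 20.6% to the right and 17.2% to the left. The point farthest left is Eif4ebp3 on fibronectin replicate 2, at the floor.

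**Figure D2:**
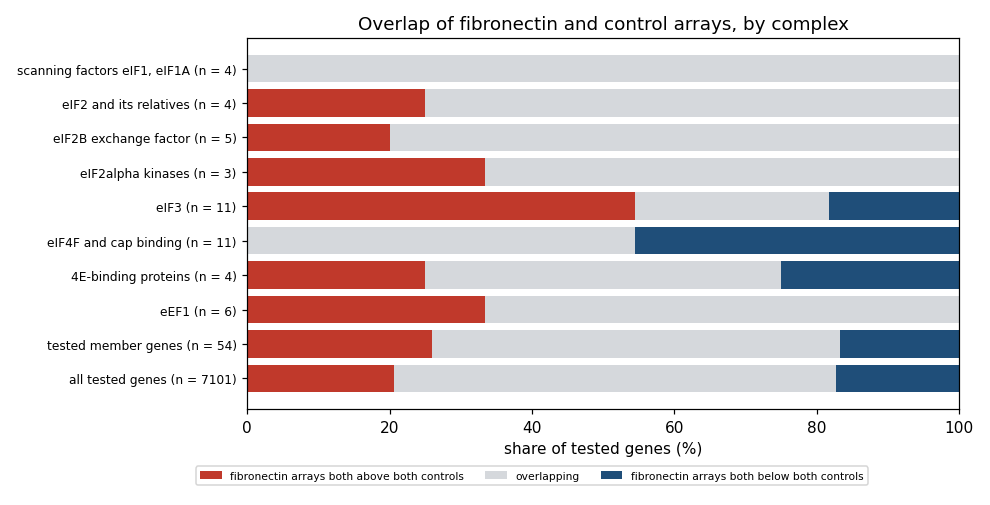
Bars give the share of tested genes whose fibronectin arrays lay both above both controls, overlapped them or lay both below, in percent, for the complexes with 3 or more tested genes and for all 7101 tested genes. eIF3 has 6 genes above and 2 below of 11, and the eIF4 factors have 0 above and 5 below of 11. The shares of all tested genes are 20.6% above and 17.2% below.

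eIF3, the scaffold of the preinitiation complex, had higher values on fibronectin for 8 of its 11 measured subunits, with a median log2 difference of 0.46. Both fibronectin arrays lay above both controls for Eif3b, Eif3d, Eif3f, Eif3h, Eif3i and Eif3l, and below both for Eif3a and Eif3m. These 6 above and 2 below of 11 stand beside 20.6% and 17.2% of all tested genes. Relative to the control means, the median subunit stood at 0.17 on fibronectin replicate 1 and 0.51 on fibronectin replicate 2, against -0.10 and 0.10 on control replicates 1 and 2. On the deposited scale 8 subunits lay above and 0 below, beside 22.0% and 10.5% of all tested genes. With arrays shifted to the same median it was 7 and 0, beside 22.2% and 14.04%. The median was 0.17 without fibronectin replicate 2, 0.26 without control replicate 1 and 0.65 without control replicate 2.

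Eif3b and Eif3d gave the largest differences. Eif3b, a scaffold subunit that contacts eIF3i and eIF3g, measured 9.79 and 10.27 on fibronectin replicates 1 and 2, against 9.14 and 9.20 on control replicates 1 and 2. Both fibronectin values were higher, by 0.86 (SE 0.31) on average or 1.82-fold, with an adjusted p of 0.726 in limma. Eif3d, which can itself bind the cap of selected mRNAs, measured 10.53 and 10.82 on fibronectin, against 9.73 and 9.93 on the controls. Its log2 difference was 0.85 (SE 0.28), 1.80-fold, with limma's adjusted p = 0.718, and it ran from 0.70 to 0.99 with 1 array left out.

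Eif3f and Eif3h form a pair of related subunits, each built around an MPN domain. Eif3f, which has the 14-base pyrimidine run shown above, measured 11.51 and 11.27 on fibronectin, against 10.72 and 10.79 on the controls. Eif3h measured 11.72 and 11.62 on fibronectin, against 10.92 and 11.18 on the controls. The members of the pair were alike in size, with log2 differences of 0.63 (SE 0.26) for Eif3f and 0.62 (SE 0.26) for Eif3h, both with limma's adjusted p = 0.754. In both, fibronectin replicate 1 was the highest of the 4 arrays, unlike in Eif3b and Eif3d, where fibronectin replicate 2 was.

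Eif3i, a WD-repeat subunit that sits with Eif3b, measured 9.65 and 9.98 on fibronectin, against 9.04 and 9.50 on the controls, a log2 difference of 0.54 (SE 0.32). Eif3l measured 10.58 and 10.84 on fibronectin, against 10.31 and 10.50 on the controls. Its log2 difference of 0.30 (SE 0.27) is about the size of its error, though the groups did not overlap. Eif3k, the partner of Eif3l in the complex, measured 10.24 and 10.94 on fibronectin, against 9.94 and 10.33 on the controls, and overlapped because fibronectin replicate 1 stood below control replicate 2. Eif3c, a core subunit that contacts eIF1, differed by 0.13 (SE 0.30), and fibronectin replicate 1 lay between the controls.

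The subunits on the other side were Eif3a, Eif3m and Eif3j. Eif3a, the largest core subunit, measured 9.25 and 8.86 on fibronectin, against 9.32 and 9.85 on the controls, a log2 difference of -0.53 (SE 0.34). Fibronectin replicate 1 and control replicate 1 differed by less than the controls did from each other. Eif3m measured 10.41 and 9.60 on fibronectin, against 10.61 and 10.54 on the controls, with a log2 difference of -0.57 (SE 0.34) that was -0.16 without fibronectin replicate 2. Eif3j measured 9.37 and 8.16 on fibronectin, against 9.23 and 9.19 on the controls, so its difference of -0.45 (SE 0.43) came from fibronectin replicate 2 and was 0.15 without it.

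**Figure D3:**
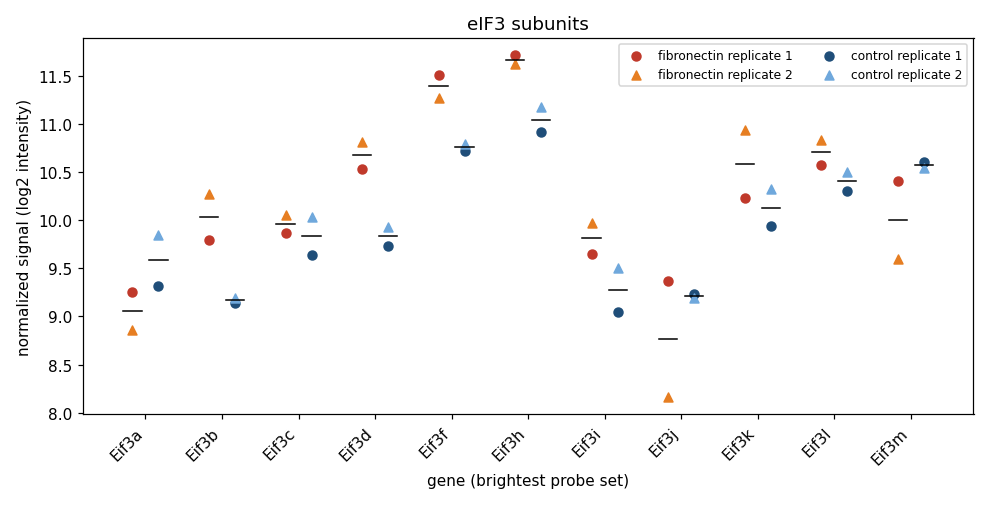
Points are the log2 signal of each eIF3 subunit on each array, with fibronectin left of control for every gene and a line at the mean of the 2 arrays. Eif3b, Eif3d, Eif3f and Eif3h show both fibronectin arrays clear of both controls, whereas the low fibronectin mean of Eif3j rests on 1 array at 8.16.

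eIF4F, the cap-binding complex of eIF4E, eIF4G and the helicase eIF4A, is described here with its relatives and helpers. Of 11 measured eIF4 genes 9 had lower means on fibronectin, the median log2 difference was -0.38, and Eif4a2, Eif4a3, Eif4e, Eif4g1 and Eif4g2 lay below the controls on each fibronectin array. None lay above, whereas 17.2% of all tested genes lay below and 20.6% above. Scaling bore on this count. On the deposited scale Eif4a2 was the only one of the 11 below both controls and Eif4e2 was above, beside 10.5% and 22.0% of all tested genes. With arrays shifted to the same median Eif4a2 and Eif4g1 were below and Eif4e2 above, beside 14.04% and 22.2%. The median was -0.27 on the deposited scale and -0.32 after the shift. It was -0.58 without fibronectin replicate 1, where 3 of the 11 (Eif4b, Eif4e2 and Eif4h) lay above both controls and 7 below, beside 40.8% and 39.3% of all tested genes. It was -0.23 without fibronectin replicate 2, where 1 lay above and 8 below, beside 38.7% and 32.5%.

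Eif4a2 had the largest lower value of the family without overlap. This helicase, a close paralogue of Eif4a1, measured 10.20 and 9.42 on fibronectin replicates 1 and 2, against 11.22 and 10.77 on control replicates 1 and 2. The log2 difference was -1.19 (SE 0.35), a 2.28-fold lower value on fibronectin, with limma's adjusted p = 0.718, and it ran from -1.58 to -0.80 with 1 array left out. Eif4a1, the main helicase of initiation, measured 10.19 and 9.65 on fibronectin, against 10.14 and 10.41 on the controls, and overlapped because fibronectin replicate 1 exceeded control replicate 1. Eif4a3, a relative that works in the exon junction complex on spliced mRNA, measured 9.68 and 9.29 on fibronectin, against 9.89 and 9.84 on the controls. Its log2 difference was -0.38 (SE 0.30).

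Eif4e, the protein that grips the cap, measured 9.53 and 9.04 on fibronectin, against 9.83 and 9.70 on the controls, a log2 difference of -0.48 (SE 0.32). Its dimmer probe set gave 6.67 and the floor of 4.55 on fibronectin, against 7.31 and 6.80 on the controls, so both probe sets lay below both controls. Eif4e2, the paralogue that represses translation of bound mRNAs, measured 8.59 and 9.39 on fibronectin, against 8.78 and 8.68 on the controls. Its arrays straddled the controls, and the difference of 0.26 (SE 0.37) was -0.14 without fibronectin replicate 2. Eif4e3 differed by -0.43 (SE 0.73) with overlap.

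Eif4g1, the scaffold that links cap, helicase and poly(A) tail, had the narrowest leave-one-out range of the 11. It measured 8.76 and 8.74 on fibronectin, against 9.12 and 9.23 on the controls. The log2 difference of -0.43 (SE 0.31) ran only from -0.48 to -0.37 with 1 array left out. Its other probe set was dim, with 2 of its 4 values at the floor. Eif4g2, a relative without the cap-binding region that serves cap-independent initiation, measured 10.66 and 10.41 on fibronectin, against 10.91 and 11.19 on the controls in its brighter probe set. Its dimmer probe set went against this, with 8.70 and 8.69 on fibronectin, against 8.62 and 8.47 on the controls, and the log2 differences were -0.52 (SE 0.27) and 0.15 (SE 0.32). Eif4g3 differed by 0.28 (SE 0.41) with overlap.

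The helicase helpers showed no separation. Eif4b, which stimulates eIF4A and is a target of S6 kinase, measured 9.06 and 9.70 on fibronectin, against 9.51 and 9.43 on the controls. The fibronectin arrays stood either side of the controls, and the difference of -0.09 (SE 0.33) was 0.03 on the deposited scale. Its second probe set differed by -0.41 (SE 0.37). Eif4h differed by -0.19 (SE 0.39), and by 0.08 on the deposited scale.

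The proteins that sequester eIF4E were mixed. Eif4ebp1, whose phosphorylation by mTOR frees eIF4E, measured 9.66 and 10.63 on fibronectin, against 9.67 and 9.87 on the controls. Fibronectin replicate 1 was as low as the lower control, and the difference of 0.38 (SE 0.37) was -0.11 without fibronectin replicate 2. Eif4ebp2, its paralogue, measured 8.26 and 8.41 on fibronectin, against 8.70 and 8.70 on the controls, and was lower on both arrays with a log2 difference of -0.36 (SE 0.33). Eif4ebp3 measured 7.47 and the floor of 4.55 on fibronectin, against 7.31 and 7.34 on the controls. Fibronectin replicate 1 thus exceeded both controls, and the difference of -1.31 (SE 0.90) was 0.14 without fibronectin replicate 2. Eif4enif1, which carries eIF4E into the nucleus and to processing bodies, measured 7.93 and 8.01 on fibronectin, against 7.82 and 7.84 on the controls, a difference of 0.14 (SE 0.36). Overlap in this group depended on the scaling. On the deposited scale Eif4ebp1 lay above both controls, and Eif4ebp2 and Eif4enif1 overlapped them. With arrays shifted to the same median Eif4ebp1 lay above both, Eif4ebp2 below both, and Eif4enif1 overlapped.

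**Figure D4:**
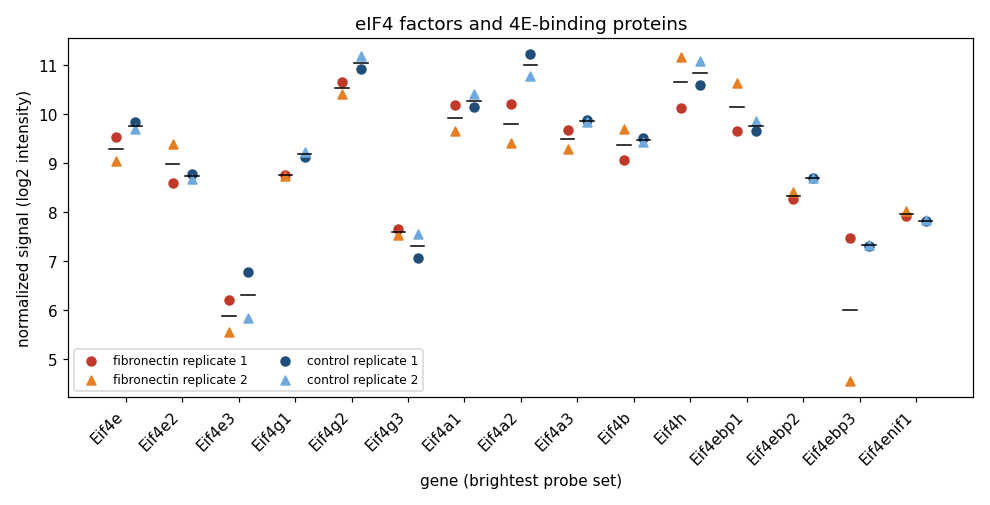
Points are the log2 signal of each eIF4 factor and 4E-binding protein on each array, with fibronectin left of control and a line at the mean of the 2 arrays. The gap is widest without overlap for Eif4a2, and the low mean of Eif4ebp3 on fibronectin rests on the array at the floor of 4.55.

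eIF2, its exchange factor eIF2B and the eIF2alpha kinases set the supply of initiator tRNA. The eIF2 subunits themselves did not separate by coating. Eif2s1, the alpha subunit that the stress kinases phosphorylate, measured 9.36 and 8.48 on fibronectin, against 8.93 and 9.26 on the controls, so the fibronectin arrays were the highest and the lowest of the 4. Eif2s2, the beta subunit, measured 10.04 and 10.22 on fibronectin, against 9.91 and 10.22 on the controls. Eif2s3, the gamma subunit that binds GTP, measured 9.17 and 9.001 on fibronectin, against 9.30 and 8.72 on the controls. Their log2 differences were -0.17 (SE 0.39), 0.06 (SE 0.29) and 0.08 (SE 0.34).

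Eif2d, which can bring tRNA to the ribosome without eIF2 and also takes part in recycling, did separate. It measured 7.50 and 8.25 on fibronectin, against 6.77 and 7.02 on the controls, a log2 difference of 0.98 (SE 0.45), 1.97-fold, with limma's adjusted p = 0.762. The lowest difference with 1 array left out, 0.60, was found without fibronectin replicate 2.

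All 5 subunits of eIF2B were measured, and 4 had higher means on fibronectin, with a median of 0.27. Relative to the control means, the median subunit stood at -0.03 on fibronectin replicate 1 and 0.88 on fibronectin replicate 2, against -0.07 and 0.07 on control replicates 1 and 2. Eif2b4, the delta subunit, was the one that did not overlap, with 8.65 and 8.84 on fibronectin, against 8.47 and 7.90 on the controls, a difference of 0.56 (SE 0.36). On the deposited scale Eif2b5 was without overlap in its place. Eif2b5, the catalytic epsilon subunit, measured 7.34 and 8.41 on fibronectin, against 7.30 and 7.45 on the controls, and Eif2b2 measured 7.46 and 8.69, against 7.54 and 8.07. Eif2b3 measured 6.73 and 8.10 on fibronectin, against 7.21 and 7.13 on the controls. In these 3 genes fibronectin replicate 2 was the highest array and fibronectin replicate 1 lay among or below the controls, and without fibronectin replicate 2 the differences were -0.03, -0.35 and -0.45. Eif2b1, the alpha subunit, measured 8.04 and 7.57 on fibronectin, against 7.55 and 8.09 on the controls, a difference of -0.02 (SE 0.41). The dim second probe set of Eif2b5 differed by 0.39 with overlap.

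Of the 3 tested kinases 1 did not overlap. Eif2ak2, the kinase PKR that senses double-stranded RNA and is induced by interferon, measured 7.44 and 8.04 on fibronectin, against 6.72 and 6.46 on the controls. The log2 difference of 1.15 (SE 0.46), 2.22-fold, was the largest on the higher side among the members, and limma's adjusted p was 0.754. It was 0.85 without fibronectin replicate 2. Eif2ak1, the heme-regulated kinase, had probe sets that differed by 0.36 (SE 0.42) and -0.03 (SE 0.44). Its brighter probe set measured 8.17 and 8.88 on fibronectin, against 8.52 and 7.81 on the controls. Eif2ak3, the kinase PERK of the endoplasmic reticulum, measured 6.60 and 6.96 on fibronectin, against 6.76 and 6.96 on the controls. Eif2ak4, the amino acid sensor GCN2, was left out as dim, with 6.02 and the floor of 4.55 on fibronectin, against 6.30 and 6.28 on the controls, and it lay below both controls without a test.

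The remaining genes include factors of scanning and of the joining of the ribosomal subunits. Of the genes with Eif1 symbols, Eif1a, Eif1ad, Eif1ax and Eif1b, none was free of overlap, and their differences ran from -0.32 to 0.26. Eif5b, the GTPase of subunit joining, measured 7.41 and 6.14 on fibronectin, against 6.83 and 7.55 on the controls, so the fibronectin arrays again spanned much of the range. Eif6, which keeps free large subunits from joining too early, measured 9.74 and 10.06 on fibronectin, against 9.43 and 9.64 on the controls, a difference of 0.37 (SE 0.30) without overlap.

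Eif5a, the hypusine-bearing factor that helps the ribosome through difficult peptide bonds, measured 9.90 and 10.49 on fibronectin, against 10.78 and 11.13 on the controls. The log2 difference was -0.76 (SE 0.32), a 1.69-fold lower value on fibronectin, with limma's adjusted p = 0.756. It remained below both controls on the deposited scale, with a difference of -0.56. With 1 array left out the difference was between -1.05, without fibronectin replicate 2, and -0.46, without fibronectin replicate 1.

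After quantile normalization the elongation factors divided by subunit. Of the 6 genes grouped under eEF1, 2 lay above both controls and 0 below, beside 20.6% and 17.2% of all tested genes. On the deposited scale Eef1a1, Eef1b2, Eef1d and Eef1g lay above and 0 below, beside 22.0% and 10.5%. With arrays shifted to the same median the same 4 lay above and 0 below, beside 22.2% and 14.04%. eEF1A carries aminoacyl-tRNA, and eEF1B, made of the products of Eef1b2, Eef1d and Eef1g, recharges it with GTP. Eef1d, the delta subunit, measured 11.29 and 11.63 on fibronectin, against 10.20 and 10.77 on the controls. The log2 difference was 0.97 (SE 0.31), 1.96-fold, with limma's adjusted p = 0.718, and it was 0.69 without control replicate 1. Eef1b2, the other nucleotide-exchange subunit, which has a pyrimidine run of 15 bases near its start, measured 12.41 and 12.16 on fibronectin, against 11.76 and 11.83 on the controls, a difference of 0.49 (SE 0.25) without overlap. Eef1g, the gamma subunit, measured 12.54 and 12.65 on fibronectin, against 12.46 and 12.54 on the controls, and the difference of 0.09 (SE 0.24) is within its error.

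Eef1a1, the eEF1A isoform of most cells, had a sign that depended on the scaling. Normalized, its brighter probe set measured 13.98 and 13.38 on fibronectin, against 13.98 and 14.11 on the controls, a difference of -0.36 (SE 0.27). As deposited, the intensities of that probe set were 17096 and 14797 on fibronectin, against 11413 and 13275 on the controls, a log2 difference of 0.37 with no overlap. With arrays shifted to the same median it was 0.32. A dimmer Eef1a1 probe set differed by 0.03 (SE 0.27) after normalization. Eef1g also depended on the scale, with a difference of 0.09 normalized and 0.61 as deposited, where it lay above both controls. Eef1a1 is known to have many near-identical processed copies in mammalian genomes, so its signal may include related sequences.

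Eef1a2, the isoform that replaces Eef1a1 in adult heart, skeletal muscle and neurons, measured 10.67 and 10.40 on fibronectin, against 10.84 and 10.38 on the controls, a difference of -0.08 (SE 0.30). Eef1e1, whose product belongs to the multi-synthetase complex and not to the elongation machinery proper, differed by -0.16 (SE 0.35). Eef2, the translocase, measured 11.41 and 12.36 on fibronectin, against 12.34 and 12.63 on the controls. It was lower on fibronectin replicate 1, with fibronectin replicate 2 level with the lower control, and the difference of -0.60 (SE 0.35) was -0.13 both without fibronectin replicate 1 and on the deposited scale. Eef2k, the kinase that inhibits eEF2, measured 7.67 and 5.61 on fibronectin, against 6.78 and 6.17 on the controls, so the fibronectin arrays were the highest and the lowest. Its difference ran from -0.86 to 1.20 with 1 array left out. A second tested probe set differed by -0.12 (SE 0.76), and both remaining ones were dim with values at the floor.

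The methyltransferase Eef1akmt1, which modifies a lysine of eEF1A, measured 6.91 and 7.92 on fibronectin, against 6.69 and 6.59 on the controls. Its log2 difference of 0.77 (SE 0.52) was 0.26 without fibronectin replicate 2. Eef1akmt4 was dim, with 6.27 and the floor of 4.55 on fibronectin, against 5.07 and 5.97 on the controls.

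**Figure D5:**
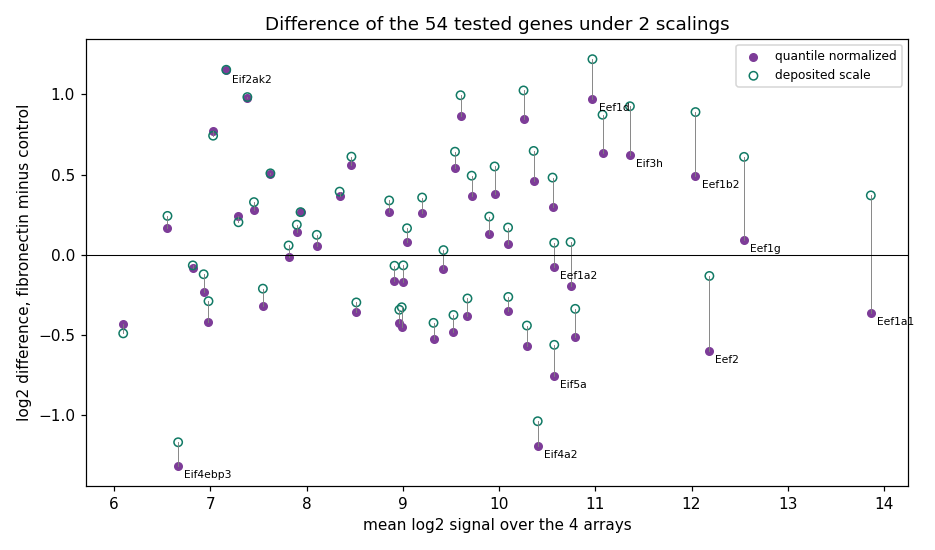
Each of the 54 tested genes is placed by its mean log2 signal over the 4 arrays and its log2 difference, fibronectin minus control, after quantile normalization (filled) and on the deposited scale (open), joined by a line. The 2 scalings give nearly the same difference for dim genes and part for the brightest ones, where Eef1a1 is at -0.36 normalized and at 0.37 as deposited.

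Ratios within an array were compared for 6 pairs of members, made of paralogues or of a factor and its inhibitor, since they do not depend on a factor common to an array. The exact two-sided permutation test cannot give a p under 0.333 with 2 arrays against 2. The ratio of Eif4a2 to Eif4a1 was lower on both fibronectin arrays, with log2 ratios of 0.00 and -0.23 on fibronectin, against 1.08 and 0.37 on the controls (exact p = 0.333). The ratio of Eif4e2 to Eif4e was higher on both, at -0.95 and 0.36 on fibronectin, against -1.06 and -1.02 on the controls (exact p = 0.333), but the change was 0.09 without fibronectin replicate 2. The ratio of Eif4ebp1 to Eif4e was 0.12 and 1.59 on fibronectin, against -0.17 and 0.17 on the controls, and overlapped. The ratios of Eef1a2 to Eef1a1, Eif4g2 to Eif4g1 and Eef2k to Eef2 also overlapped, with changes of 0.29, -0.09 and 0.77. The change for Eef1a2 to Eef1a1 was -0.30 on the deposited scale. After Benjamini-Hochberg adjustment over the 6 pairs the lowest exact p was 0.8. The level of a ratio depends on both probe sets, and only its change between arrays is read here.

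The partners of these factors were taken from lists, and limma called none of their genes at an adjusted p under 0.05. Their counts stand beside the 20.6% of all tested genes above both controls and the 17.2% below. Of the 20 tested genes of cap and mTOR signalling, 2 lay above both controls and 6 below, with a median log2 difference of -0.06. Leaving out control replicate 2 gave a median of -0.39, and leaving out fibronectin replicate 1 gave -0.34. Akt1s1, the mTORC1 inhibitor PRAS40, differed by -0.87 (SE 0.32), Ppp2r1a, a scaffold of protein phosphatase 2A, by -0.81 (SE 0.32) and the kinase Akt2 by -1.58 (SE 0.72). Akt2 measured 7.96 and 5.56 on fibronectin, against 8.36 and 8.32 on the controls, so most of its difference came from fibronectin replicate 2. On the higher side Ppp2ca, the catalytic subunit of the same phosphatase, differed by 0.60 (SE 0.43), the stress protein Sesn1 by 0.37 (SE 0.45) and Tsc1, a brake on mTORC1, by 0.41 (SE 0.59). Mtor itself differed by 0.00 (SE 0.42).

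Cytoplasmic poly(A)-binding proteins bind eIF4G and close the mRNA into a loop. The list held poly(A)-binding proteins, nuclear Pabpn1 among them, and regulators that bind such proteins. Of its 5 tested genes 2, Pabpc4 and Pabpn1, lay below both controls and 1, Paip2b, above. Pabpc4 measured 10.70 and 11.17 on fibronectin, against 11.83 and 11.62 on the controls, a difference of -0.79 (SE 0.28). Pabpn1 differed by -0.63 (SE 0.42) and Paip1, which links the poly(A)-binding protein to eIF4A, by -0.45 (SE 0.56). Paip2b, an inhibitor of that protein, differed by 0.45 (SE 0.41). The median of the 5 genes was -0.45, and it was 0.05 without fibronectin replicate 2, -0.07 without control replicate 1 and -0.84 without control replicate 2.

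Of the 6 tested termination and recycling genes, 2 lay above both controls and 0 below. Pelo, which rescues stalled ribosomes, differed by 0.63 (SE 0.35) and Denr, a reinitiation factor related to Eif2d, by 0.38 (SE 0.35). Etf1, the release factor, differed by -0.17 (SE 0.40), and Gspt1, its GTPase partner, by 0.06 (SE 0.29). Of 3 tested mitochondrial factors, Tufm, the mitochondrial counterpart of eEF1A, differed by 0.44 (SE 0.30) and lay above both controls. Gfm1, the mitochondrial translocase, differed by -1.77 (SE 0.76), with 7.49 and 5.02 on fibronectin, against 7.98 and 8.07 on the controls. Mrrf, a recycling factor whose value on fibronectin replicate 2 was at the floor, had a difference of -0.60 (SE 0.96). The median of the 3 was -0.60, and it was 0.33 without fibronectin replicate 2 and -2.07 without fibronectin replicate 1.

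The cytosolic aminoacyl-tRNA synthetases and their scaffold proteins had 6 of 21 tested genes above both controls and 4 below, or 28.6% and 19.0%, near the shares of all tested genes. The median was 0.17, and it was -0.01 without fibronectin replicate 2, 0.08 without control replicate 1 and 0.28 without control replicate 2. Vars1 differed by 1.14 (SE 0.53), Yars1 by 0.75 (SE 0.34) and the scaffold Aimp2 by 0.61 (SE 0.32). Nars1 differed by -0.66 (SE 0.37), Hars1 by -0.74 (SE 0.53) and Farsa by -0.52 (SE 0.54).

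Genes of the amino acid and stress response, many of them targets of ATF4, the factor translated when eIF2alpha is phosphorylated, had 7 of 16 tested genes above both controls and 4 below. Their median log2 difference was 0.34. It was 0.12 without fibronectin replicate 2, 0.20 without control replicate 1 and 0.51 without fibronectin replicate 1. Ddit3, the stress factor CHOP, measured 9.25 and 9.19 on fibronectin, against 8.47 and 8.54 on the controls, a difference of 0.72 (SE 0.31). Cebpb differed by 0.84 (SE 0.42) and Phgdh, the first enzyme of serine synthesis, by 0.85 (SE 0.47). Atf4 itself was slightly lower, with 10.34 and 10.44 on fibronectin, against 10.61 and 10.63 on the controls, a difference of -0.23 (SE 0.26). Atf5 differed by -0.24 (SE 0.28) and Vegfa by -0.77 (SE 0.37).

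Cytosolic ribosomal protein genes, the other large class of messages with pyrimidine starts, had 15 of 42 tested genes above both controls and 4 below, with a median of 0.13 normalized, 0.69 on the deposited scale and 0.65 with arrays shifted to the same median. Their median was thus as dependent on the scaling as the differences of Eef1a1 and Eef1g. Rpl13a differed by 0.84 (SE 0.29), Rpl7l1, a relative that works in ribosome assembly, by 0.84 (SE 0.33) and Rpl39 by 0.81 (SE 0.38). On the lower side Rpl4 differed by -0.41 (SE 0.35), Rpl11 by -0.26 (SE 0.23) and Rps24 by -0.28 (SE 0.26).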

How the data were processed

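The authors deposited linear signal intensities, 1 for each probe set on each array. The sources used here do not give the software or scaling behind them. Median deposited intensities were 110.4 and 97.4 on fibronectin replicates 1 and 2, against 110.7 and 90.9 on control replicates 1 and 2. The intensities of all 15875 probe sets were quantile normalized, floored at their 20th percentile, 23.4, and converted to log2. The 9 Affymetrix control probe sets and the 40% of the others with the lowest mean, 6347 probe sets, were left out, and 9519 were tested in limma 3.58.1 (R 4.3.3) by lmFit, then eBayes with its prior variance following intensity. The p-values are two-sided and Benjamini-Hochberg adjusted over all tested probe sets, with a threshold of 0.05. Errors are limma's moderated standard errors. With 2 arrays per group, precision is limited by the number of arrays.

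Gene names came from the platform annotation, in which 12783 probe sets had 1 symbol, 312 several and 2771 none. All 56 member genes were found by Entrez identifier in the GRCr8 gene table. All members are accounted for by role. Per-array values are given for a set list of core factors, the 6 largest differences without overlap in each direction, and members whose tested probe sets differed by 1 or more (there were none). Of each partner list up to 3 genes per direction with the smallest p are named. Mtor and the marker genes Tnnt2, Myl2, Tnnc1, Myl3, Atp2a2, Pecam1, Vwf, Kdr, Prph, Ncam1 and S100b were named after their values were seen. The members and lists were chosen with earlier results of these data known. Alternatives were other scalings, filters, floors and variance models, the replicate number as a block, a threshold of 0.10, the mean over probe sets, and leaving out each array. The limma step was tested on simulated data.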

Additional observations from a re-analysis of the deposited data

How the results depend on the processing

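In limma 0 probe sets and 0 members passed the threshold of 0.05, as without the intensity trend, with robust moderation, at a threshold of 0.10, and under every scaling, filter and floor tried. With 1 array left out, where the remaining array of that group is assumed to have the spread of the other group, 0 to 337 probe sets and 0 to 1 members passed. The member was Eif4ebp3, without fibronectin replicate 1. The labels do not say that replicate numbers pair the samples, though same-numbered deviations correlated at 0.27. With the replicate block 234 probe sets and 2 members, Eif4a2 and Eef1d, passed. The members above both controls ranged from 18 to 25 and those below from 14 to 20 with 1 array left out. The shares of all tested genes rose along with these counts, as given above. Those below numbered 2 on the deposited scale and 4 with arrays shifted to the same median, beside 10.5% and 14.04% of all tested genes. The median of the members was 0.18 on the deposited scale and 0.03 to 0.12 with 1 array left out. The change of the Eef1a2 to Eef1a1 ratio was -0.30 under both scalings and -0.01 to 0.58 with 1 array left out.

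Of 490 comparisons of a named gene under another setting, 26 turned the sign, and the cause was not tested. On the deposited scale Eif4b was 0.029, Eif2b1 0.058, Eef1a1 0.37 and Eef1a2 0.074. With arrays shifted to the same median Eif2b1 was 0.011, Eef1a1 0.32 and Eef1a2 0.027. Leave-one-out ranges of the other genes whose sign turned were -0.090 to 0.22 for Eif2s2, -0.30 to 0.15 for Eef1a2, -0.21 to 0.37 for Eif2s3, -0.29 to 0.26 for Eif2b1, -0.26 to 0.10 for Eif2ak3, -0.86 to 1.20 for Eef2k, -0.41 to 0.23 for Eif4b, -0.11 to 0.86 for Eif4ebp1, -0.61 to 0.27 for Eif2s1, -0.35 to 0.88 for Eif2b2, -0.45 to 0.92 for Eif2b3, -0.033 to 1.04 for Eif2b5 and -1.05 to 0.22 for Eif5b. Of 77 list medians under another setting, 20 moved by more than the spread between arrays. Signals near the floor have no order, which limits Eef2k, Eif4ebp3 and Eif2ak4.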
